A study of Mus musculus with 6 samples.

Results

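The genes described here serve glucose production, glucose transport, the last step of glycolysis and the control of pyruvate oxidation in the liver. They are G6pc, Slc37a4, Pck1, Pcx, Fbp1, Slc2a2, Pklr and Pdk4, chosen by symbol, and each of the 8 was found in 1 row of its own among the 29981 rows of the table. Liver RNA was sequenced from C57BL/6 mice with a hepatocyte-specific deletion of Abca1, made with Cre recombinase under the Albumin promoter (HSKO, n = 3), and from floxed controls that are labelled wild type (WT, n = 3). Age, sex and the deleted exons are not stated in the sources used here. Since no label ties a sample to an animal of its own, p-values cover the spread among these 6 samples, which may be technical. All mice had food withheld between 9 am and 1 pm before the livers were taken.

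The liver releases glucose between meals. Pyruvate and lactate carbon enters the pathway through pyruvate carboxylase (Pcx) and cytosolic phosphoenolpyruvate carboxykinase (Pck1), passes fructose-1,6-bisphosphatase (Fbp1), and leaves as glucose after the glucose-6-phosphate transporter (Slc37a4) and the catalytic subunit of glucose-6-phosphatase (G6pc) have acted at the endoplasmic reticulum. Slc2a2 encodes GLUT2, the main facilitative glucose transporter of the hepatocyte membrane. In the opposite direction, liver pyruvate kinase (Pklr) closes glycolysis. Pyruvate dehydrogenase kinase 4 (Pdk4) keeps pyruvate out of oxidation during fasting. Fasting hormones act on the Pck1 promoter through a cAMP response element, and the glucose-sensing factor ChREBP, encoded by Mlxipl, acts on the Pklr promoter through a carbohydrate response element (ChoRE).

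The promoter letters of the genes on which the results turn are shown as the 250 bases before the annotated transcript start, from RefSeq on GRCm38.p6 (mm10), with motif matches in capitals. The window of Pck1 is chr2:173152823-173153072 on the plus strand, that of Slc2a2 is chr3:28697653-28697902 on the plus strand, and that of Pklr is chr3:89136373-89136622 on the plus strand, before the downstream of its annotated starts.
Pck1: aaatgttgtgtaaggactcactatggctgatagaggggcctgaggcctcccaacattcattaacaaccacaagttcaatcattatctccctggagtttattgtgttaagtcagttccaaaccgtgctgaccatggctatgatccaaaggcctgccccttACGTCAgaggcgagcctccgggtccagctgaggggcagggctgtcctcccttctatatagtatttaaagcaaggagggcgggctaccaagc
Slc2a2: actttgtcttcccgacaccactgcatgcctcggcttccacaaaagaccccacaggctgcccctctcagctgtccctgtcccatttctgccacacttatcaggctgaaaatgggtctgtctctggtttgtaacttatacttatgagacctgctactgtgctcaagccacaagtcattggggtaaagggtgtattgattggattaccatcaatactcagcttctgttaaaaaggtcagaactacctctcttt
Pklr: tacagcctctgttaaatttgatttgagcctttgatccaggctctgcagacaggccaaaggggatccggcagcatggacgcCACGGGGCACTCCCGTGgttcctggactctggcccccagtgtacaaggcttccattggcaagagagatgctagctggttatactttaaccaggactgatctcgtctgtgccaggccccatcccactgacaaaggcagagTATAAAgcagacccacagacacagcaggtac
The capitals in Pck1 mark ACGTCA, the core of a cAMP response element, whose first base lies 91 bases before the start. In Pklr they mark a ChoRE, a pair of E-box-like motifs with a spacer, which begins 170 bases before the start, and a TATAAA box. Both strands were searched for these 3 motifs and for the forkhead motif TGTTTAC and the insulin response core TGTTTTG, and no motif overlapped another. Among 32851 promoter windows of this length, ACGTCA occurred in 6.47%, the ChoRE in 0.0396%, TATAAA in 12.4%, TGTTTAC in 3.17% and TGTTTTG in 5.56%. The Slc2a2 window held none of the 5, which says only that these letters are not in that window. Among members whose windows are not shown, Slc37a4 also held ACGTCA and TATAAA, and G6pc held TGTTTTG and TATAAA. Neither gene was called changed in the main comparison below. A link between these letters and the directions of change was not tested.

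The libraries were shallow, with 631020 to 702013 recovered reads in HSKO and 838637 to 933319 in WT. One row, BC071253, held 46.2% to 57.8% of the reads in HSKO and 43.1% to 52.9% in WT. Abca1, the deleted gene, had 5 reads over the HSKO libraries and 90 over the WT libraries, with no overlap between the groups (limma adjusted p = 0.000862), so the labels held. Levels are the deposited normalized values, in which reads were divided by the size factor of their library. A log2 fold change is the HSKO mean of log2(level + 1) minus the WT mean, and it understates changes of low genes. A gene is called changed at a limma adjusted p below 0.05 over all 2750 rows with a mean level of at least 10. Of the 8 genes, 7 passed that filter and Pdk4 did not.

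Slc2a2 and Pklr were lower in HSKO livers, Pcx was lower by a smaller margin, and Pck1 was higher. Of the 7 tested genes 4 were called, against 40.1% of all tested rows. Of these, 3 were called lower, against 11.6% of all tested rows, and 1 higher, against 28.5%. The values of HSKO and WT did not overlap for 5 of the 7 genes, against 51.5% of all tested rows. HSKO was the lower group in 4 of them and the higher in 1, against 20.1% and 31.4% of all tested rows. The median log2 fold change was -0.37 over the 7 genes and 0.07 over all tested rows.

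**Figure D1:**
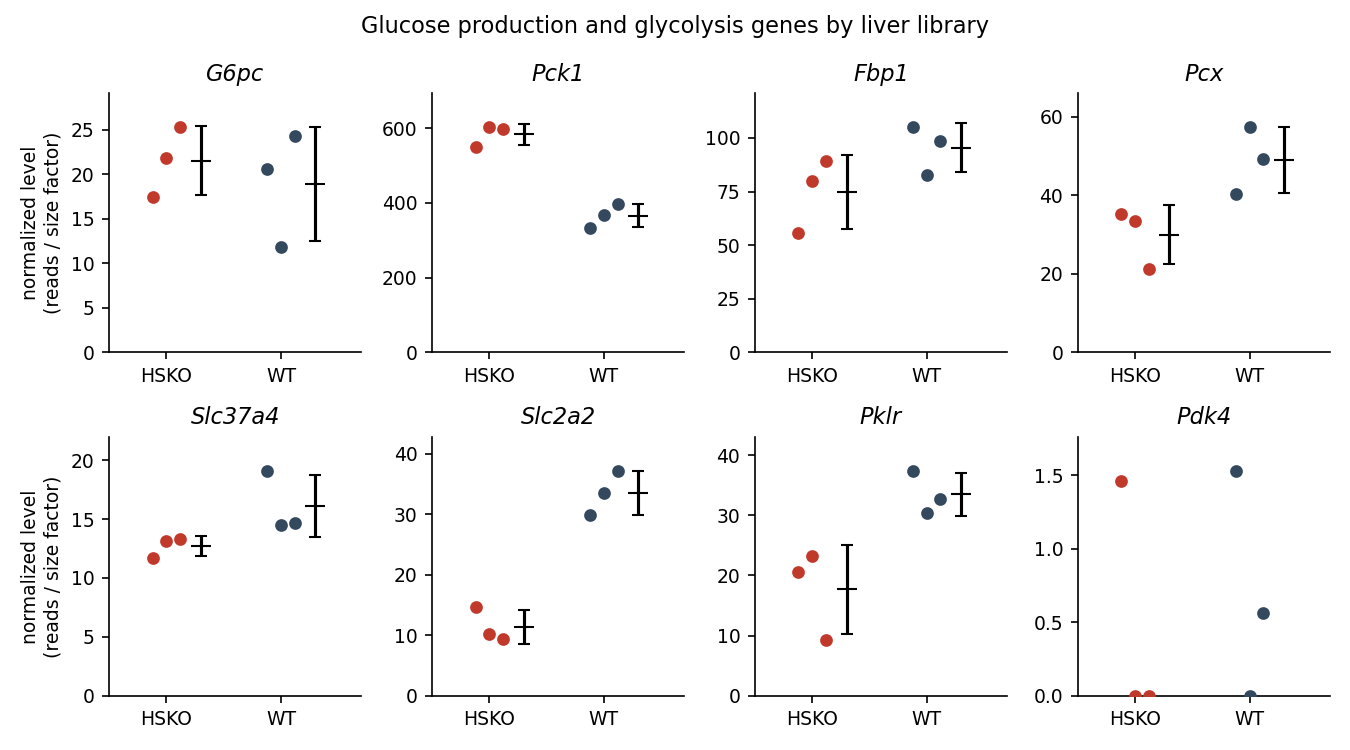
Normalized level (reads divided by a size factor, y axis from 0) of each of the 8 genes in the 3 HSKO libraries (red) and the 3 WT libraries (dark blue). Points are libraries, and bars show the mean with the SD for the 7 genes past the filter. Pck1 lies higher in all 3 HSKO libraries, Slc2a2, Pklr and Pcx lie lower, and the groups overlap for G6pc, Fbp1 and Pdk4.

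Pck1, which makes phosphoenolpyruvate from oxaloacetate, lies on chromosome 2 from 173153048 to 173159273. Its level was 551, 603 and 598 in HSKO replicates 1 to 3, against 333, 369 and 396 in WT replicates 1 to 3. All HSKO values lay above all WT values. Pck1 rose to 584 ± 28.9 in HSKO, against 366 ± 31.3 in WT (SD, n = 3, log2 fold change 0.67, SE 0.22, limma adjusted p = 0.0201). The reads behind these levels were 377, 415 and 450 in HSKO and 437, 561 and 702 in WT, so the raw reads were fewer in HSKO than in WT on average and the direction rests on the scaling of the libraries. From summed reads and size factors the HSKO to WT ratio was 1.58 (exact 95% interval 1.47 to 1.7, for counting error alone).

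The rise of Pck1 was near the middle of what rows averaging at least 50 did. Pck1 itself averaged 475, and rows matched to its level were not compared. The log2 fold change of Pck1 was above that of 66.7% of all tested rows. Among 688 rows averaging at least 50, 385 were called higher and 97 lower, with a median log2 fold change of 0.88, and 43.8% of them had a lower log2 fold change than Pck1. With quantile normalization, which gives every library the same distribution of values, the log2 fold change of Pck1 was 0.01 (limma adjusted p = 0.968). The call of Pck1 was also lost without HSKO replicate 2 (limma adjusted p = 0.0866) and without WT replicate 2 (limma adjusted p = 0.0742).

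Pcx, on chromosome 19 from 4510472 to 4621752, carboxylates pyruvate to oxaloacetate in mitochondria and so supplies the substrate of Pck1. Its level was 35.1, 33.4 and 21.3 in HSKO libraries, against 40.4, 57.3 and 49.1 in WT libraries. The groups did not overlap, although HSKO replicate 1 and WT replicate 1 lay close together. Pcx fell to 29.9 ± 7.54 in HSKO, against 48.9 ± 8.4 in WT (SD, n = 3, log2 fold change -0.71, SE 0.28, limma adjusted p = 0.0467). The call was lost without HSKO replicate 2 (limma adjusted p = 0.0596), HSKO replicate 3 (0.174), WT replicate 2 (0.185) or WT replicate 3 (0.102). The opposite strand of the Pcx locus holds Lrfn4, which shares no exon bases with it, and the Lrfn4 row was at 35.1, 33.4 and 34.6 in HSKO and 18.3, 14.5 and 14.7 in WT.

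Fbp1, on chromosome 13 from 62864753 to 62888282, removes a phosphate from fructose-1,6-bisphosphate. Its level was 55.5, 80 and 89.1 in HSKO and 105, 82.9 and 98.7 in WT. The groups overlapped, since HSKO replicate 3 lay above WT replicate 2. The means were 74.9 ± 17.4 in HSKO and 95.6 ± 11.5 in WT (SD, n = 3), and the log2 fold change of -0.37 did not pass (95% interval -0.90 to 0.16, limma adjusted p = 0.247).

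The glucose-6-phosphatase system was not called changed in either of its parts. G6pc, the catalytic subunit, on chromosome 11 from 101367561 to 101377903, was at 17.5, 21.8 and 25.3 in HSKO and at 20.6, 11.8 and 24.3 in WT. The groups overlapped, and the log2 fold change was 0.22 with a 95% interval of -0.43 to 0.88 (limma adjusted p = 0.588). Slc37a4, which carries glucose-6-phosphate to that subunit, on chromosome 9 from 44396852 to 44402968, was at 11.7, 13.1 and 13.3 in HSKO and at 19.1, 14.5 and 14.7 in WT. Every HSKO value lay below every WT value, but the gap between the nearest libraries was small, and the log2 fold change of -0.31 did not pass (95% interval -0.97 to 0.36, limma adjusted p = 0.445). Summed reads were 46 in HSKO and 88 in WT for G6pc, and 27 in HSKO and 73 in WT for Slc37a4. Changes within these intervals were not detectable at this depth.

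Slc2a2, on chromosome 3 from 28697903 to 28731359, showed the largest log2 fold change of the 7 tested genes. The level of this glucose transporter was 14.6, 10.2 and 9.31 in HSKO, against 29.8, 33.6 and 37.2 in WT. The highest HSKO library was below the lowest WT library by more than the range within either group. Slc2a2 fell to 11.4 ± 2.85 in HSKO, against 33.5 ± 3.73 in WT (SD, n = 3, log2 fold change -1.50, SE 0.29, limma adjusted p = 0.00098). Only 0.837% of all tested rows had a lower log2 fold change. The reads were 10, 7 and 7 in HSKO and 39, 51 and 66 in WT, and from their sums and the size factors the HSKO to WT ratio was 0.333 (exact 95% interval 0.207 to 0.515, for counting error alone). Without any 1 of the 6 libraries the log2 fold change lay between -1.68 and -1.38, and the call held each time (limma adjusted p from 0.00138 to 0.00703).

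Pklr, on chromosome 3 from 89136142 to 89146784, turns phosphoenolpyruvate into pyruvate. Its level was 20.5, 23.3 and 9.31 in HSKO, against 37.4, 30.3 and 32.7 in WT. The groups did not overlap, and HSKO replicate 3 was well below the other two HSKO libraries. Pklr fell to 17.7 ± 7.38 in HSKO, against 33.5 ± 3.62 in WT (SD, n = 3, log2 fold change -0.97, SE 0.32, limma adjusted p = 0.0213). Without HSKO replicate 3 the log2 fold change was -0.59 and the call was lost (limma adjusted p = 0.11), as it was without WT replicate 1 (0.0585) or WT replicate 3 (0.0569). Pklr shares 711 exon bases with Hcn3 on the opposite strand. The Hcn3 row, which also names a second transcript, was at 950, 1278 and 473 in HSKO and at 661, 414 and 309 in WT, far above Pklr, and the strand setting of the counting is not stated in the sources.

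Pdk4, on chromosome 6 from 5483351 to 5496309, was close to undetected. It had 1, 0 and 0 reads in HSKO and 2, 0 and 1 reads in WT. Summed over each group, neither count exceeded the limit of 3 reads that a count of 0 allows, so no fold is given and no difference was detectable at this depth.

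Levels per kilobase of annotated exon put Pck1 and Fbp1 above the other member genes in every library. The order of the genes below them varied between WT libraries. Pck1 was highest at 220 ± 10.9 per kilobase in HSKO and 138 ± 11.8 in WT, followed by Fbp1 at 50.6 ± 11.7 in HSKO and 64.7 ± 7.78 in WT (SD, n = 3). In WT, Pcx (11.5 ± 1.98) and Pklr (11 ± 1.19) did not differ beyond their spread, nor did G6pc (7.83 ± 2.64), Slc37a4 (6.09 ± 0.987) and Slc2a2 (6.02 ± 0.67). In HSKO, Slc2a2 stood lowest of the 7 tested genes at 2.04 ± 0.511 per kilobase, below Slc37a4 at 4.81 ± 0.331, and G6pc (8.92 ± 1.6) and Pcx (7.05 ± 1.78) overlapped. Pdk4 was at 0.14 ± 0.242 in HSKO and 0.2 ± 0.222 in WT.

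How the libraries are scaled sets the direction of some of these genes, so each was followed through the deposited scaling and 6 others, of which TMM was run with edgeR on reads and so changed the test as well. Slc2a2 was called lower in all 7 scalings, with log2 fold changes from -2.14 to -0.94. Pklr was called lower in 6, from -1.62 to -0.41, and Pcx in 6, from -1.37 to -0.14, each missing with scaling to hepatocyte markers (limma adjusted p = 0.474 for Pklr and 0.801 for Pcx). Fbp1 was called lower in 4 of the 7 and Slc37a4 in 1, and both turned positive with scaling to hepatocyte markers, at 0.21 and 0.24. Pck1 was called higher in 2 of the 7, the deposited scaling and hepatocyte markers, and its log2 fold change ran from 1.26 with hepatocyte markers to -0.00027 with total reads. G6pc was called in 0 of the 7, with log2 fold changes from -0.42 to 0.78; its unadjusted p in the deposited scaling was 0.489. DESeq2, which called 21.2% of all rows higher and 11.8% lower, called Pck1, Slc2a2, Pklr and Pcx in the same directions as limma. With no filter on low values Slc2a2 was the 1 member called, and without a mean-variance trend Pck1 (limma adjusted p = 0.055) and Pcx (0.0728) were lost.

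**Figure D2:**
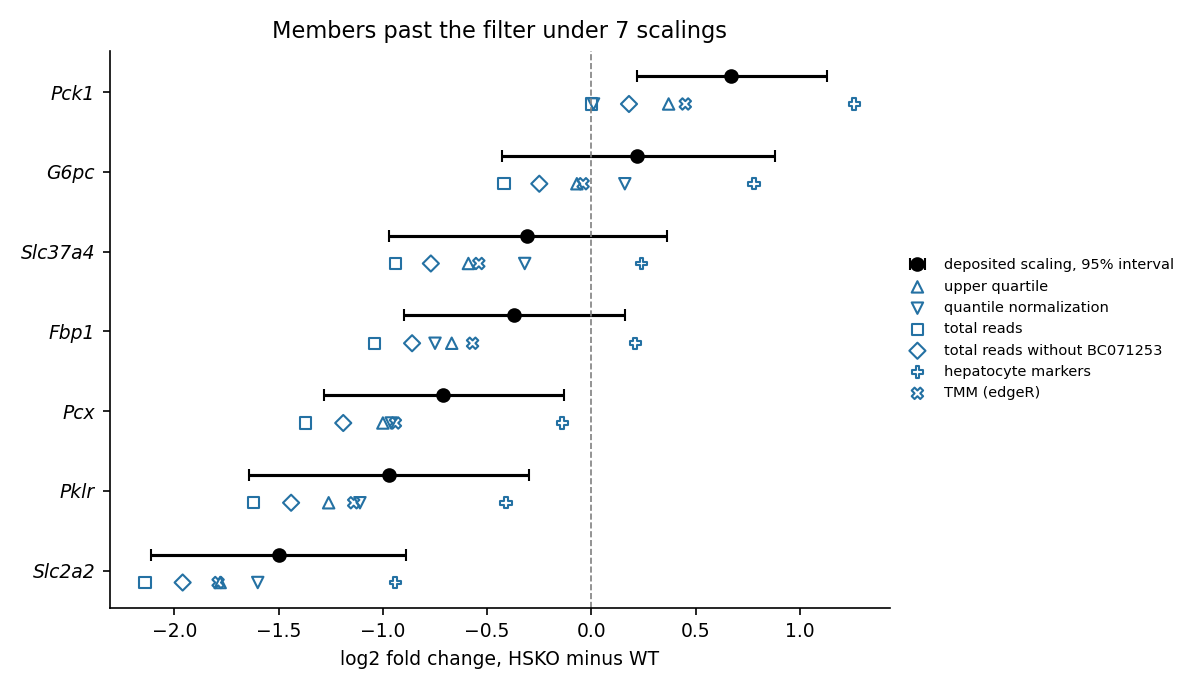
Log2 fold change, HSKO minus WT, of the 7 genes past the filter. Black points with bars are the deposited scaling with its 95% interval, and open symbols are the 6 other scalings, TMM being edgeR's fit. All 7 symbols of Slc2a2 lie left of 0, those of Pklr and Pcx as well, and those of G6pc lie on both sides.

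A scaling by 1 factor per library moves all rows alike, apart from the pseudocount, while quantile normalization moves rows by different amounts. Against the deposited scaling the median log2 fold change of all tested rows shifted by -0.28 with the upper quartile, -0.09 with quantile normalization, -0.64 with total reads, -0.47 with total reads without BC071253, -0.20 with TMM in edgeR and 0.55 with hepatocyte markers. The share of all rows called higher was 28.5% in the deposited scaling and 11.6% were called lower. These shares were 21.1% higher and 25.6% lower with the upper quartile, 21.6% and 18.3% with quantile normalization, 8.04% and 38% with total reads, and 15.6% and 33.2% with total reads without BC071253. They were 24.9% higher and 21.9% lower with TMM in edgeR, and 40.8% higher and 0.873% lower with hepatocyte markers. Measured from the median of each setting, the spread was smaller. Slc2a2 lay between -1.66 and -1.57 relative to it, Pklr between -1.09 and -1.02, Pcx between -0.94 and -0.76, Fbp1 between -0.73 and -0.42, Slc37a4 between -0.42 and -0.30 and G6pc between 0.08 and 0.18. Pck1 lay between 0.03 with quantile normalization and 0.63 with hepatocyte markers, against 0.60 in the deposited scaling.

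Ratios of reads between the genes within a library do not depend on a factor per library, and the ratios of Pck1 to Slc2a2, Pklr, Fbp1 and Pcx were higher in HSKO. Rows averaging at least 50 as a class also had higher levels in HSKO, as the median of 0.88 above shows, and these ratios carry that difference. For each read of Slc2a2 there were 37.7, 59.3 and 64.3 reads of Pck1 in HSKO, against 11.2, 11 and 10.6 in WT. The WT libraries were nearly the same and every HSKO library was above them. The ratio of Pck1 to Pklr was 26.9, 25.9 and 64.3 in HSKO and 8.92, 12.2 and 12.1 in WT. HSKO replicate 3 stood above the other HSKO libraries, and its Pklr reads numbered 7, against 14 and 16 in those. The ratio of Pck1 to Fbp1 was 9.92, 7.55 and 6.72 in HSKO and 3.17, 4.45 and 4.01 in WT, and the ratio of Pck1 to Pcx was 15.7, 18 and 28.1 in HSKO and 8.25, 6.45 and 8.07 in WT. Neither ratio overlapped between the groups.

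Pck1 did not separate from G6pc, nor G6pc from Slc37a4. The ratio of Pck1 to G6pc was 31.4, 27.7 and 23.7 in HSKO and 16.2, 31.2 and 16.3 in WT, and the groups overlapped. G6pc had 1.5, 1.67 and 1.9 reads for each read of Slc37a4 in HSKO and 1.08, 0.818 and 1.65 in WT, again with overlap. The 2 transporters did separate, with 1.25, 0.778 and 0.7 reads of Slc2a2 for each read of Slc37a4 in HSKO, against 1.56, 2.32 and 2.54 in WT. G6pc also separated from Slc2a2, with ratios of 1.2, 2.14 and 2.71 in HSKO and 0.692, 0.353 and 0.652 in WT. The ratio of G6pc to Pklr was 0.857, 0.938 and 2.71 in HSKO and 0.551, 0.391 and 0.741 in WT, without overlap. Slc2a2 to Fbp1 did not overlap either, while Fbp1 to Pcx, Fbp1 to Pklr and Pcx to Pklr did. These ratios were chosen with the values known and carry no test.

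**Figure D3:**
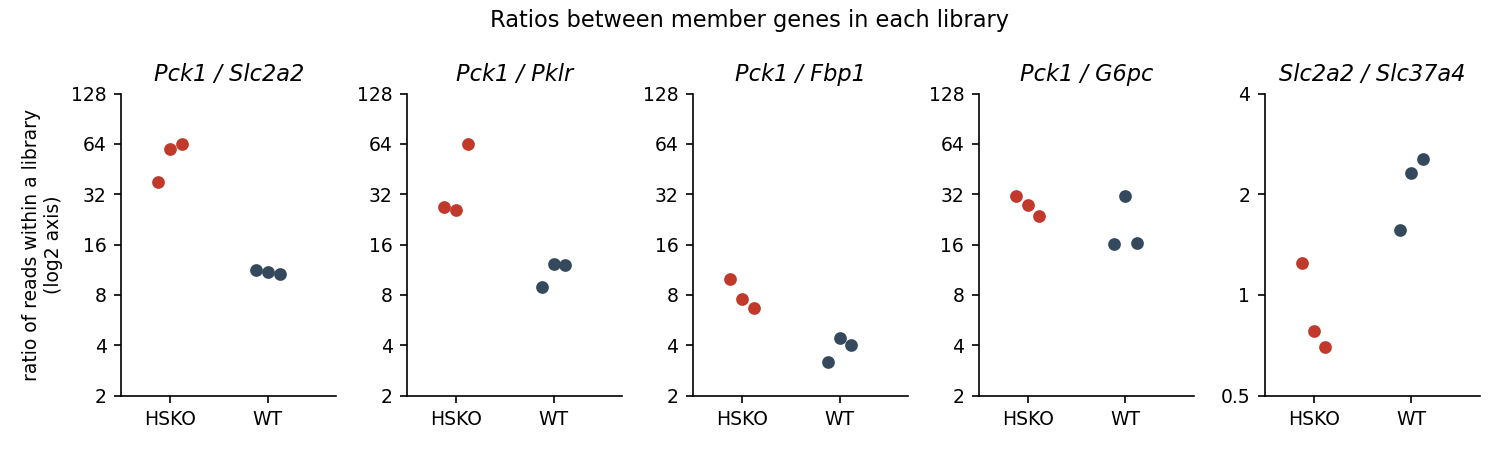
Ratio of the reads of member genes within each library, on a log2 axis, in the 3 HSKO (red) and 3 WT (dark blue) libraries. The ratio of Pck1 to Slc2a2 lies between 37.7 and 64.3 in HSKO and between 10.6 and 11.2 in WT, while the ratio of Pck1 to G6pc overlaps.

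Most tested pericentral markers were called lower in HSKO, while most periportal markers were not called. Gluconeogenesis is concentrated in periportal hepatocytes, and glycolysis in pericentral ones. Of 11 pericentral markers, 8 were tested and 7 were called lower, against 11.6% of all tested rows. The median log2 fold change of the 8 was -0.93, and Cyp2a5 was not called (-0.17). The summed level of all 11 was 874 to 1295 in HSKO and 1865 to 1914 in WT. Cyp2e1, the ethanol-metabolizing cytochrome that makes up most of that sum, was at 801 ± 161 in HSKO and 1395 ± 18 in WT (SD, n = 3).

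Of 11 periportal markers, 10 were tested and 2 were called higher (Pigr and Sds), against 28.5% of all tested rows. The other 8 were not called. The median log2 fold change of the 10 was 0.06, against 0.07 over all tested rows. The summed level of the 11 markers was 2882 to 3939 in HSKO and 2086 to 2136 in WT. Pigr, the polymeric immunoglobulin receptor, made up most of it. Without Pigr the sum was 526 to 855 in HSKO and 640 to 769 in WT, with overlap. All 16 hepatocyte markers with a row were detected, and their summed level was 10613 to 15616 in HSKO and 17458 to 20288 in WT. These 16 are the list used for hepatocyte marker scaling. Of them 8 were called lower, against 11.6% of all tested rows, and the other 8 were not called. The median log2 fold change of the 16 was -0.62. In bulk liver, fewer cells of a type and less RNA per cell cannot be told apart. The part of these markers in the values of Pck1, Slc2a2, Pklr and Pcx was not tested.

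Markers of other cells were low in both groups. Among them, the sums for endothelium and for stellate cells and fibroblasts were lower in HSKO, without overlap. Summed levels were 43.6 to 81.1 in HSKO and 59.2 to 96.1 in WT for 11 markers of Kupffer cells and macrophages, 24.7 to 40.9 in HSKO and 45.8 to 56.4 in WT for 10 of endothelium, and 16.1 to 32 in HSKO and 44 to 46.6 in WT for 10 of stellate cells and fibroblasts. They were 7.27 to 17.5 in HSKO and 13.5 to 17.8 in WT for 8 of cholangiocytes (Krt19, Krt7 and Tspan8 at 0), and 14.5 to 21.3 in HSKO and 14.1 to 25 in WT for 4 erythroid genes. They were 0 to 2.66 in HSKO and 1.13 to 3.29 in WT for 10 of lymphocytes, of which 8 were at 0, among them Cd3e and Ms4a1. Pancreatic and adipose genes summed to 0 in HSKO and 1.13 to 2.29 in WT, and all 5 neutrophil markers, S100a8 and S100a9 included, were at 0 in all 6 libraries.

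Among the other enzymes of glycolysis and gluconeogenesis most were too low to test. Of 29 listed genes 28 had a row and 8 were tested, with a median log2 fold change of -0.17. Of the 8, 1 was called higher, against 28.5% of all tested rows, and 1 lower, against 11.6%. In either direction 40.1% of all tested rows were called, so calls were not more frequent in this list. Ldha, a subunit of lactate dehydrogenase, fell to 29.5 ± 4.44 in HSKO, against 55.6 ± 17.4 in WT (SD, n = 3, log2 fold change -0.86, limma adjusted p = 0.0195). Its call was lost with scaling to hepatocyte markers (limma adjusted p = 0.53) and without HSKO replicate 1 (0.0634), HSKO replicate 2 (0.0591) or WT replicate 1 (0.0913). The Pfkp row, for the platelet form of phosphofructokinase, rose to 41.5 ± 12.6 in HSKO, against 13.5 ± 5.45 in WT (SD, n = 3, log2 fold change 1.60, limma adjusted p = 0.00129). That row also names a second transcript, and the gene shares 748 exon bases with Pitrm1 on the opposite strand, a row at 2.91 to 6.65 in HSKO and 4.51 to 6.58 in WT.

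Of the enzymes that serve both directions, Tpi1 and Gpi1 did not pass in the deposited scaling. Tpi1, triose phosphate isomerase, was at 40.2 ± 8.07 in HSKO and 53.2 ± 5.48 in WT (limma adjusted p = 0.206), and Gpi1, glucose-6-phosphate isomerase, at 9.82 ± 2.35 in HSKO and 14.1 ± 2.35 in WT (SD, n = 3, limma adjusted p = 0.286). Tpi1 was called lower with the upper quartile (0.0266), quantile normalization (0.0417), total reads (0.00471) and total reads without BC071253 (0.0062), and Gpi1 with total reads (0.0269) and total reads without BC071253 (0.0428). Among the untested genes, Pck2, the mitochondrial phosphoenolpyruvate carboxykinase, had 0 reads in all 6 libraries.

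No tested gene around pyruvate dehydrogenase was called in the deposited scaling, and most genes of this list were too low to test. Of 12 rows for that complex, its kinases and phosphatases and the pyruvate carriers, 3 were tested and 0 called, 0 at an unadjusted p below 0.05 and 0 with DESeq2 or edgeR. Pdha1, the catalytic subunit, was at 22.9 ± 5.93 in HSKO and 18.5 ± 2.8 in WT (limma adjusted p = 0.464), Dld, the dihydrolipoamide dehydrogenase, at 11.9 ± 3.48 in HSKO and 14.6 ± 5.76 in WT (0.631), and Pdk2, a constitutive kinase of the complex, at 13.7 ± 3.69 in HSKO and 16.9 ± 8.01 in WT (SD, n = 3, 0.641). With scaling to hepatocyte markers 1 of the 3 was called, higher.

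Of 18 listed genes that bring substrate into glucose production 15 were tested, 1 was called higher and 3 lower, against 28.5% higher and 11.6% lower over all tested rows, and the median log2 fold change was -0.10. With total reads 8 of the 15 were called, all lower, and with hepatocyte markers 4, all higher. Gpd1, the cytosolic glycerol-3-phosphate dehydrogenase, fell to 26.9 ± 2.72 in HSKO, against 68.7 ± 22.6 in WT (SD, n = 3, log2 fold change -1.28, limma adjusted p = 0.00154). Slc25a13, the mitochondrial aspartate-glutamate carrier, fell to 13.7 ± 3.25 in HSKO, against 29.4 ± 4.05 in WT (SD, n = 3, log2 fold change -1.06, limma adjusted p = 0.00756). The call of each was lost with scaling to hepatocyte markers (limma adjusted p = 0.109 for Gpd1 and 0.254 for Slc25a13). Mdh1, the cytosolic malate dehydrogenase, whose row also names a second transcript, had a log2 fold change of -0.70 (limma adjusted p = 0.0336), and missed the call under hepatocyte marker scaling (0.791) and without HSKO replicate 1, HSKO replicate 3, WT replicate 2 or WT replicate 3 (0.0566 to 0.111).

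Sds, the serine dehydratase that feeds serine carbon into pyruvate, was at 42.4, 16 and 50.5 in HSKO and at 12.2, 11.8 and 20.9 in WT. HSKO replicate 2 lay inside the WT range. The log2 fold change was 1.12 (limma adjusted p = 0.0213), and the call was lost without HSKO replicate 1 (0.105), HSKO replicate 3 (0.108), WT replicate 1 (0.0551) or WT replicate 2 (0.0744), and with 3 of the other scalings. Sds also stands in the periportal list and shares 360 exon bases with Plbd2 on the opposite strand. Tat, tyrosine aminotransferase, was at 131 ± 51.4 in HSKO and 79.8 ± 35.2 in WT (SD, n = 3, log2 fold change 0.74, limma adjusted p = 0.0658). It was called higher with scaling to hepatocyte markers (0.00303), a minimum mean of 50 (0.0392) and without WT replicate 3 (0.0119).

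Of the sugar transporters other than Slc2a2, 1 of 13 was tested. Slc5a2, the sodium-glucose cotransporter known from the kidney, had a row at 164, 161 and 184 in HSKO and at 95.4, 52.6 and 57.5 in WT (log2 fold change 1.34, limma adjusted p = 0.000912). It shares 597 exon bases with BC017158 on the opposite strand, a row at 0 to 1.33 in HSKO and 3.05 to 5.08 in WT, and whether its reads came from the cotransporter was not tested. Slc2a1, Slc2a5, Slc2a8 and Slc2a9, other facilitative hexose transporters, had at most 9 reads in any library.

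Among regulators of these genes, 14 of 31 were tested, 2 were called higher and 5 lower, and the median log2 fold change was -0.35. Over all tested rows 28.5% were called higher and 11.6% lower, and 40.1% in either direction. With total reads 9 of the 14 were called, all lower. Mlxipl, which encodes ChREBP, had 12, 13 and 6 reads in HSKO and 44, 47 and 51 in WT. Its level was 17.5, 18.9 and 7.98 in HSKO, against 33.6, 30.9 and 28.8 in WT, with the lowest value in HSKO replicate 3, as for Pklr. Mlxipl fell to 14.8 ± 5.95 in HSKO, against 31.1 ± 2.41 in WT (SD, n = 3, log2 fold change -1.10, limma adjusted p = 0.0107). The call was lost without HSKO replicate 3 (0.0517) and with scaling to hepatocyte markers (0.316).

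Ppara, the nuclear receptor of the fasting response, fell to 19.6 ± 6.28 in HSKO, against 42.3 ± 2.72 in WT (SD, n = 3, log2 fold change -1.12, limma adjusted p = 0.00429). Insr, the insulin receptor, had a log2 fold change of -1.02 (limma adjusted p = 0.0238). Onecut1 (-0.99, 0.0254) and Creb3l3 (-0.82, 0.0394), both liver transcription factors, complete the 5 lower calls and were named after their values were seen. The Onecut1 row also names Gm16551, and the gene shares 2171 exon bases with Gm20649 on the same strand. Without WT replicate 3 the lower calls were 2, Ppara and Mlxipl, and with scaling to hepatocyte markers none of the 5 held. Cebpb, a transcription factor induced by cAMP, rose to 134 ± 30.6 in HSKO, against 57.6 ± 8.7 in WT (SD, n = 3, log2 fold change 1.19, limma adjusted p = 0.00142), and Foxa1, a pioneer factor of liver genes, rose to 35.6 ± 13.5 in HSKO, against 15.2 ± 1.08 in WT (log2 fold change 1.10, limma adjusted p = 0.00939). With scaling to total reads neither was called (0.0975 for Cebpb and 0.264 for Foxa1), and Foxa1 was not called with total reads without BC071253 (0.0897) or without HSKO replicate 2 (0.057).

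Several genes known to respond to fasting signals were below the filter. Igfbp1, a FOXO1 target, had 2, 2 and 3 reads in HSKO and 1, 1 and 2 in WT, Ppargc1a, a coactivator of gluconeogenic genes, 2, 1 and 3 in HSKO and 0, 1 and 1 in WT, and Sik1, a kinase induced by cAMP, 4, 4 and 3 in HSKO and 1, 4 and 2 in WT. These genes were named after their values were seen, and counts this low carry no test. Foxo1 had 1, 5 and 2 reads in HSKO and 6, 12 and 8 in WT, and Irs2, an insulin receptor substrate, 0, 1 and 0 in HSKO and 4, 5 and 3 in WT. Raw reads are not comparable between groups, since size factors were 0.684 to 0.752 in HSKO and 1.31 to 1.77 in WT. Mean levels in HSKO and WT were 3.27 and 0.85 for Igfbp1, 2.79 and 0.407 for Ppargc1a, and 5.22 and 1.51 for Sik1. They were 3.8 and 5.66 for Foxo1, whose groups overlapped, and 0.485 and 2.68 for Irs2. None of these differences was tested.

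**Figure D4:**
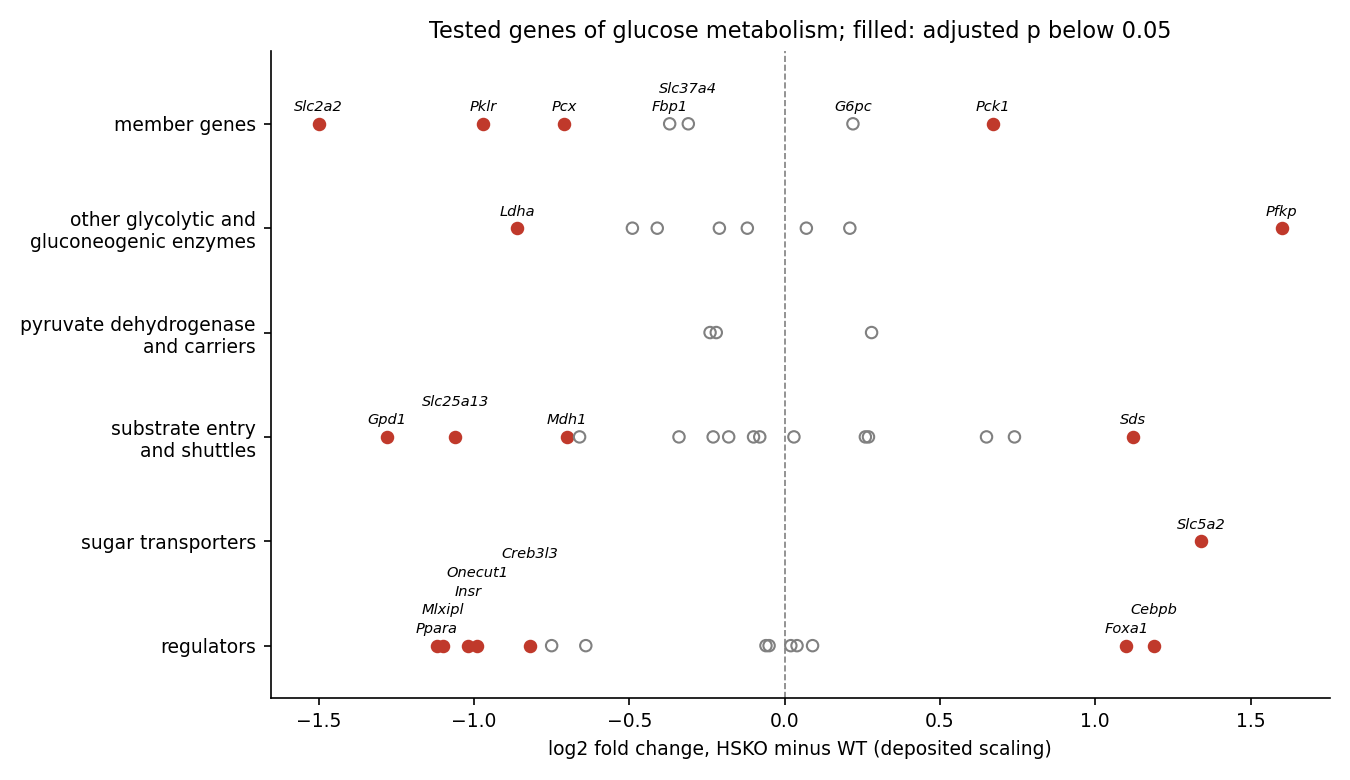
Log2 fold change, HSKO minus WT, of every tested gene, with the 7 member genes in the top line and the 5 lists of related genes under it. Filled red points have a limma adjusted p below 0.05 over all rows and are named, as are all members, and open points do not pass. Slc2a2 is the lowest point at -1.50 and the Pfkp row the highest at 1.60.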

How the data were processed

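Liver RNA of 3 HSKO and 3 WT samples was measured with a stranded, paired-end mRNA kit, per the labels' protocols. Values are the authors' deposited signal for each gene row, which equals reads over a library size factor. Tools named in the submitters' processing notes are RSEM 1.2.9, Bowtie, DESeq 1.16.0 and FastQC 0.11.3, with the mm10 build. Annotation, filters and strand setting are not stated in the sources used here.

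Dividing by the level of 1 read in each library gave whole reads for 100% of values within 0.001. Limma 3.58.1 in R 4.3.3 was run on log2(value + 1) over 2750 rows, with a mean-variance trend, two-sided, and Benjamini-Hochberg adjustment. On recovered reads, DESeq2 1.42.0 called 909 rows and edgeR 4.0.16 with TMM called 1285, against 1103 in limma. Other settings were a pseudocount of 0.5 or 10, a minimum mean of 50 or none, 5 other scalings, no trend, robust estimation, the replicate block and leaving out each library. On simulated data for HSKO against WT with 2759 genes, 41 of 94 changes at fold 2 and 93 of 97 at fold 4 were recovered, with 5 false calls among 139. The simulation drew as many rises as falls, with a fixed dispersion and the true size factors. It therefore did not cover errors of scaling, or a spread among libraries larger than the one set.

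The members, lists, markers and ratios were chosen with earlier results of these data known. Besides the members and Abca1, the named genes are up to 5 tested genes per list with the smallest p, and the 3 tested rows whose pattern is nearest to each member. Some genes that this rule names are not reported here. Other genes given with values were named after those were seen. Intervals of read ratios are exact, and they and the limit of 3 reads cover counting error only. Coordinates and exon lengths are those of GENCODE M21 on mm10, where 89.4% of tested rows matched by name.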

Additional observations from a re-analysis of the deposited data

How the results depend on the processing

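Slc2a2 kept its direction and its call under every alternative that tested it. Of the 7 tested members 4 were called. That number was 1 with no filter on low values, 1 with a minimum mean of 50 (2 members tested), 2 with scaling to hepatocyte markers, 2 without a mean-variance trend and 2 to 4 without 1 library. Over all rows, 1103 calls became 509 with a minimum mean of 50, where 688 rows were tested, and 738 to 1135 without 1 library. The log2 fold change of G6pc changed sign with upper quartile scaling (-0.07), total reads (-0.42), total reads without BC071253 (-0.25) and edgeR (-0.04), and lay between -0.07 and 0.42 without 1 library. Pck1 changed sign with total reads (-0.00027). With hepatocyte markers, Fbp1 (0.21), Slc37a4 (0.24), Tpi1 (0.16), Gpi1 (0.04), Dld (0.31) and Pdk2 (0.33) changed sign. Pdha1 did so with upper quartile scaling (-0.01), total reads (-0.37) and total reads without BC071253 (-0.19), and Pdk2 lay between -0.53 and 0.11 without 1 library. The cause was not tested. Same-numbered HSKO and WT libraries did not deviate together (r from -0.03 to -0.02), so no pairing by number was seen. An r near 0 at this depth cannot show that none exists. With the replicate block 1020 rows and 3 members were called, Pcx was not (adjusted p = 0.0622), and Tat was (0.0349). Depth limits G6pc, Slc37a4 and Pdk4, with 1 to 46 summed reads each in HSKO, as well as Slc2a2 (24) and Pklr (37).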

Other observations

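Up to 3 tested rows whose levels ran most like those of a member over the 6 libraries were taken by Pearson r on log2(value + 1), as a description in which the groups themselves set much of the likeness. For Slc2a2 they were Gcdh (0.997), Palmd (0.991) and Abcb4 (0.991). For Pklr they were Mlxipl (0.991), Cyp1a2 (0.986) and C8b (0.984). For Pck1 they were Cep250 (0.990), Dynlt1a (0.987) and Vcl (0.982), for Pcx Naa60 (0.987), F5 (0.987) and Aldh3a2 (0.983), for Fbp1 Dnajb11 (0.981) and Cpn2 (0.979), and for Slc37a4 Prdx5 (0.988), Fgb (0.967) and Ldha (0.956). For G6pc, whose groups overlap, the nearest rows were Kcnk5 (0.929), Ctr9 (0.914) and Prodh (0.912).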
